A study of Homo sapiens with 34 samples.

Results

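Called regions of 3 chromatin proteins were followed at 10 genes of the YAP and TEAD transcription programme: CCN1, CCN2, ANKRD1, AMOTL2, AXL, LATS2, AJUBA, YAP1, WWTR1 and TEAD1. These are 10 of the 19974 protein-coding genes on chromosomes 1 to 22 and X. They were chosen by name and not by a cut-off on a measured value, but with earlier results of these data known. A region was given to a gene when it overlapped the gene or the 20 kb on either side by at least 1 bp. All 20 lists of regions were read, and each region was also placed as a percentile of its own list by total signal and by maximum signal.

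The lists come from CUT&RUN, in which an antibody brings a nuclease to a protein on chromatin and the released DNA is sequenced. The cells were U2OS, an established human osteosarcoma line that grows attached. The antibodies recognised SMARCA1, which drives nucleosome sliding as an ISWI-type motor, OGG1, which cuts oxidised guanine out of DNA, and Orc6, a subunit of the origin recognition complex. SMARCA1 and OGG1 were profiled in 4 groups each: siGl3 (control siRNA) without treatment (NT), siGl3 with H2O2, siOrc6 (siRNA against Orc6) NT, and siOrc6 with H2O2. Orc6 was profiled in siGl3 NT and siGl3 H2O2 cells. Every group of the 10 had n = 2 libraries, an siRNA for 72 h, a double thymidine block and a release of 3 h, and H2O2 meant 5 mM for 30 min. The 14 other samples of the series were not analysed here. Nothing in the labels says that the 2 libraries of a group came from separate cultures, so p-values measure the spread between these libraries, which may be technical.

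In the Hippo pathway, a chain of kinases ending in LATS1 and LATS2 phosphorylates the coactivators YAP1 and WWTR1 (also called TAZ) and keeps them out of the nucleus. When the chain is quiet, as in spread cells on a stiff surface, YAP1 and WWTR1 enter the nucleus and bind DNA through TEAD factors such as TEAD1. Their target genes code for secreted matrix proteins, cytoskeletal regulators and, as feedback, for inhibitors of YAP1 itself. None of the antibodies was against YAP1, WWTR1 or a TEAD factor, so the regions below say where SMARCA1, OGG1 or Orc6 signal was called and nothing of YAP binding or transcription.

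The promoters of 7 members are shown because the results below turn on whether a region lay over them. Each runs from 250 bases before to 50 bases after a RefSeq start on GRCh38.p14, 5′ to 3′ on the strand of the gene. Capitals mark the TEAD motif GGAATG on either strand (CATTCC when reversed) and the AP-1 motif TGANTCA. The positions are chr6:131951323-131951622 on the minus strand for CCN2, chr10:90921038-90921337 minus for ANKRD1, chr3:134374398-134374697 minus for AMOTL2 and chr19:41226505-41226804 plus for AXL. The others are chr13:21061537-21061836 minus for LATS2, chr11:102110197-102110496 plus for YAP1 and chr3:149657976-149658275 minus for WWTR1.
CCN2: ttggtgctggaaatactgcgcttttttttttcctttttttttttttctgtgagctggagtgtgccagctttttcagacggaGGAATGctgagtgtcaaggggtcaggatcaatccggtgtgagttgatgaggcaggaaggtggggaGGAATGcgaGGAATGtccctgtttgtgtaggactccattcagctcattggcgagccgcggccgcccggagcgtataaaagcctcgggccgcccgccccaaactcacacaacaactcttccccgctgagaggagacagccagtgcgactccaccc
ANKRD1: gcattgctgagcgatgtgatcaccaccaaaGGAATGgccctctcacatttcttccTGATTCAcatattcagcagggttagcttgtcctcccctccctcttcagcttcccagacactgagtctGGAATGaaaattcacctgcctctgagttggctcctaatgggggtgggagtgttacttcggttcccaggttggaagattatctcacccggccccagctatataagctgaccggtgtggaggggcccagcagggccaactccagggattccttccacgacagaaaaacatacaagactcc
AMOTL2: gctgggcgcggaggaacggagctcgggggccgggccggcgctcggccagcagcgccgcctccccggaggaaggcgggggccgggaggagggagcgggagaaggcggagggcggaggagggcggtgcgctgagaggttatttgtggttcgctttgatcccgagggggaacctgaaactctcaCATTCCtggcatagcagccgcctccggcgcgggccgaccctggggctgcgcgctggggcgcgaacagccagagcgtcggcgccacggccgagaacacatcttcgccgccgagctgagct
AXL: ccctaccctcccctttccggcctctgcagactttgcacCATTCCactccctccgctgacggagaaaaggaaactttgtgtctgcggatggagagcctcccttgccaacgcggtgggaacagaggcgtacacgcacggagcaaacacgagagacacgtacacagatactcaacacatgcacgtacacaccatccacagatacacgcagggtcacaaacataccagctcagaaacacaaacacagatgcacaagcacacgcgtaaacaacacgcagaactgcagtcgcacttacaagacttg
LATS2: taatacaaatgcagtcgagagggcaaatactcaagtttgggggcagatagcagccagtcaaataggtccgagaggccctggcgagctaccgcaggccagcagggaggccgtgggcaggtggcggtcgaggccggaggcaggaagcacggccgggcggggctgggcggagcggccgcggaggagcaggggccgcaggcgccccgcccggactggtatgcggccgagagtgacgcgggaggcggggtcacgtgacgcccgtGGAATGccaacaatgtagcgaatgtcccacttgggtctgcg
YAP1: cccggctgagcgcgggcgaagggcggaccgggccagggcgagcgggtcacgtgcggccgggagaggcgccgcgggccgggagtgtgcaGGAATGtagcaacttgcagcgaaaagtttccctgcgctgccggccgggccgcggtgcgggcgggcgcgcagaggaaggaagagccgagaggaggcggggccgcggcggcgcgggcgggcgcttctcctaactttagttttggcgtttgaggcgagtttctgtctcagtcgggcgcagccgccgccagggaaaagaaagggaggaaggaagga
WWTR1: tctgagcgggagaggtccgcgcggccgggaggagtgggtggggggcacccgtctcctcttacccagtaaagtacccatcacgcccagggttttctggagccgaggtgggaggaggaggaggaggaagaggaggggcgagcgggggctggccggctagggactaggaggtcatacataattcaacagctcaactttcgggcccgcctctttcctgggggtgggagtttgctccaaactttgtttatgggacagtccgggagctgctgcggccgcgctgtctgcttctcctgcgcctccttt
CCN2 holds 3 TEAD motifs at positions from -169 to -95 relative to its start, and only 0.104% of 22132 promoters of this length hold 3 or more, while 12.2% hold at least 1. ANKRD1 holds 2, at -220 and -128, with the single AP-1 motif of the set, a motif that 6.15% of promoters hold. AMOTL2, AXL, LATS2 and YAP1 hold 1 each, that of LATS2 at position 9 past the start, and the motifs searched do not overlap. Over all 12 promoters read for 8 members, 7 hold a TEAD motif, among them that of the inner AJUBA start, and 5 do not. The AXL promoter shown was taken over its other start, equally often covered, because it has the motif, so the printed set is not a count of motifs. The WWTR1 promoter shown has neither motif, which says only that those letters are not in this window. AMOTL2, AXL, AJUBA and WWTR1 have a second start in the table. For CCN1 and TEAD1, distances below are from the nearer end of the gene.

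The libraries differed widely in how much was called. The number of regions ran from 6992 in SMARCA1 siGl3 NT replicate 1 to 132408 in OGG1 siOrc6 H2O2 replicate 1, and the covered genome from 31.8 to 825.4 Mb. The share of gene windows with any region ran from 19.2% to 89.8%. The depth in reads is unknown, so no value below is a count of reads. OGG1 siOrc6 NT replicate 2 stood apart from its partner, with a median covered share over the 10 genes of 34.4% against 12.4% in replicate 1. All 4 SMARCA1 siOrc6 lists, and no other list, are marked as resubmitted in their names, so resubmission and siOrc6 cannot be told apart for SMARCA1. Of the cell type lists, 5 of 12 mesenchymal and osteoblast, 3 of 8 epithelial, 2 of 5 endothelial, 0 of 6 lymphoid and 0 of 6 hepatocyte genes were occupied in all 20 lists, against 13.8% of all genes. These counts do not set the labelled cell type apart from epithelial or endothelial cells, and region lists do not show expression.

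Most members carried a region in every library. A window was occupied in all 20 lists at 7 of the 10 genes (CCN1, CCN2, AXL, AJUBA, YAP1, WWTR1 and TEAD1), against 13.8% of protein-coding genes. ANKRD1 and AMOTL2 were occupied in 19 lists and LATS2 in 16. In the 2 SMARCA1 siGl3 NT lists, 8 of the 10 genes had a region in both libraries, against 17.1% of genes. These counts describe named genes and were given no test. Longer genes have wider windows: that of TEAD1 spans 310.3 kb and that of CCN1 43.2 kb.

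At 4 members, 1 short stretch was called in every one of the 20 lists, against 8.54% of genes with such a base. For CCN1 it was chr1:85580601-85581900, over the lower-coordinate end of the gene. For CCN2 it was chr6:131949519-131950919, inside the gene 0.453 kb from its start. The stretches of AXL, chr19:41219630-41220983, and AJUBA, chr14:22979080-22980846, also lay inside the genes, 0.407 and 1.705 kb from the nearest start. In WWTR1 the stretch chr3:149657623-149659319 over the inner start was called in 19 lists, and the outer start in only 4. The inner start is the promoter printed above. In ANKRD1 the most shared stretch, also in 19 lists, was chr10:90930258-90931221, 9.171 kb upstream of the start.

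**Figure D1:**
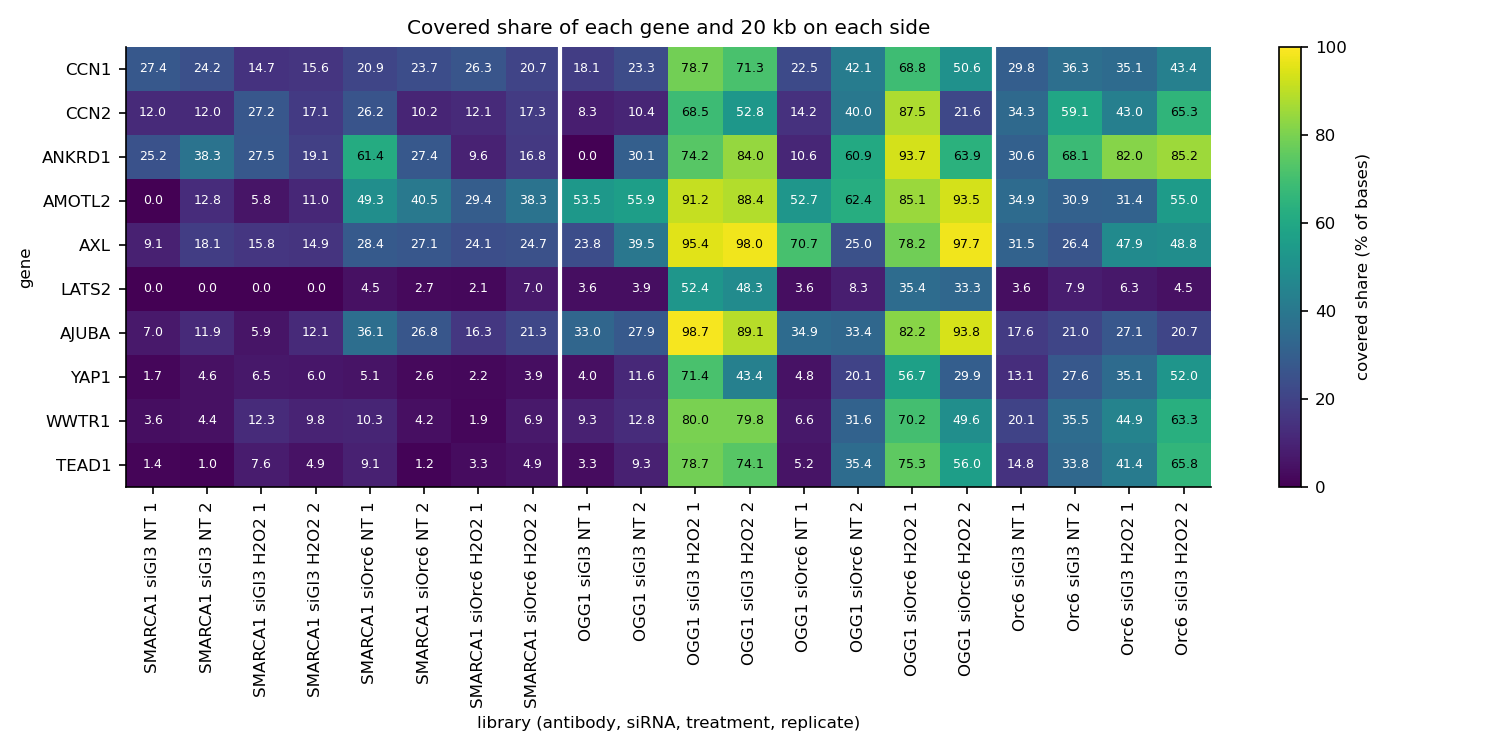
Covered share (percentage of bases of the gene and 20 kb on each side that lie in called regions; colour and printed value) of each of the 10 genes (rows) in each of the 20 libraries (columns, named by antibody, siRNA, treatment and replicate; white lines part the antibodies). The OGG1 H2O2 columns are the brightest, and LATS2 stays at 0 in the 4 SMARCA1 siGl3 libraries.

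CCN1 codes for a secreted matricellular protein that binds integrins and is a standard readout of YAP activity. Its window was covered to 27.4% and 24.2% in the 2 SMARCA1 siGl3 NT libraries, 14.7% and 15.6% in siGl3 H2O2, 20.9% and 23.7% in siOrc6 NT, and 26.3% and 20.7% in siOrc6 H2O2. In siGl3 cells both H2O2 libraries were below both NT libraries, and in siOrc6 cells the treatments overlapped. No share of all genes is set beside the siGl3 difference, so it is not shown to be particular to CCN1. The NT libraries each held 1 region, of 11847 and 10467 bp, spread over the whole gene and several kb beyond it. The H2O2 libraries held 4 and 3 regions, with a mean width of 1586 and 2245 bp. The map of regions at CCN1 shows 1 wide region without H2O2 and several narrow ones with it in the control siRNA cells. Most genes changed in this way. Of 3379 genes, 94.3% had narrower and 87% more SMARCA1 regions in both siGl3 H2O2 lists than in both NT lists.

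With OGG1, CCN1 was covered to 18.1% and 23.3% in siGl3 NT, 78.7% and 71.3% in siGl3 H2O2, 22.5% and 42.1% in siOrc6 NT, and 68.8% and 50.6% in siOrc6 H2O2. All 4 H2O2 libraries lay above all 4 NT libraries. With Orc6 the values were 29.8% and 36.3% in NT and 35.1% and 43.4% after H2O2, so the treatments overlapped. The Orc6 regions of CCN1 numbered 1 per NT library and 2 per H2O2 library. Their mean width was lower in both H2O2 libraries, as at 0.648% of the 11263 genes with a region in all 4 Orc6 lists. The region over the gene was 12869 and 15693 bp wide in NT and 11487 and 13631 bp after H2O2, which overlapped. The second region of the H2O2 libraries was smaller, at 3690 and 5130 bp, and lowered the mean. CCN1 was the only member with that lower mean width for Orc6. It was also the only one with more Orc6 regions in both H2O2 libraries, against 7.54% of genes. At 4 members (CCN2, ANKRD1, AXL and TEAD1) the mean width of Orc6 regions was higher in both H2O2 libraries, against 59% of genes.

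CCN2, the secreted matrix protein known as CTGF, had a region over its start in all 20 libraries. SMARCA1 covered 12.0% and 12.0% of its window in siGl3 NT, 27.2% and 17.1% in siGl3 H2O2, 26.2% and 10.2% in siOrc6 NT, and 12.1% and 17.3% in siOrc6 H2O2. OGG1 covered 8.29% and 10.4% in siGl3 NT, 68.5% and 52.8% in siGl3 H2O2, 14.2% and 40.0% in siOrc6 NT, and 87.5% and 21.6% in siOrc6 H2O2. The siOrc6 pairs of OGG1 had opposite signs, with replicate 1 higher after H2O2 by 73.3 points and replicate 2 lower, at 21.6% against 40.0%. Orc6 covered 34.3% and 59.1% in NT and 43.0% and 65.3% in H2O2, again overlapping. The SMARCA1 siGl3 NT libraries each had 1 region, of 5163 and 5195 bp, over the stretch with the 3 TEAD motifs printed above.

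**Figure D2:**
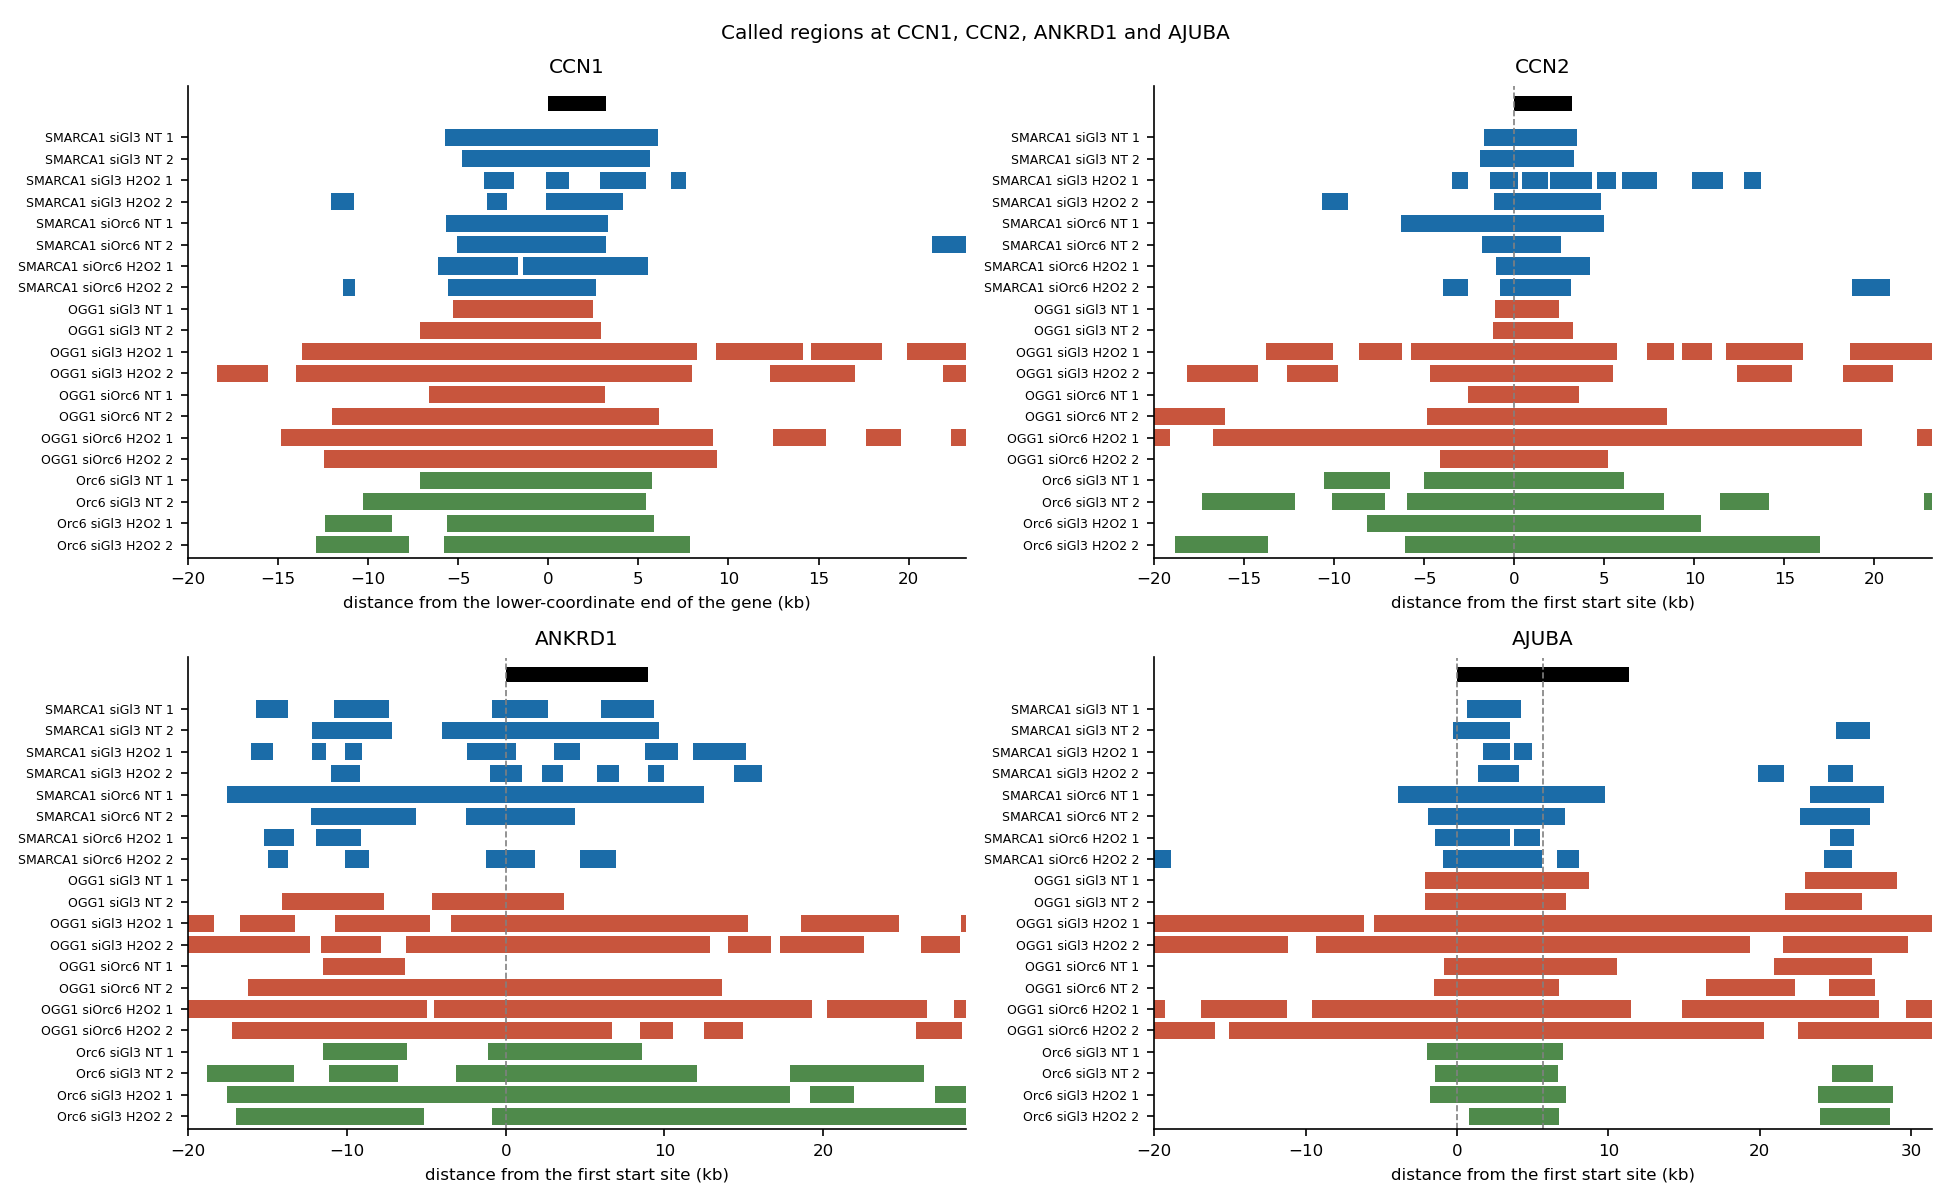
Called regions (coloured bars: SMARCA1 blue, OGG1 red, Orc6 green) in each of the 20 libraries (rows) at CCN1, CCN2, ANKRD1 and AJUBA. The horizontal axis is the distance in kb from the first start in the direction of the gene (for CCN1 from its lower-coordinate end), the black bar is the gene and dashed lines are RefSeq starts. At CCN1 the SMARCA1 siGl3 NT libraries show 1 wide bar and the H2O2 libraries 4 and 3 narrow ones.

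ANKRD1, a nuclear and sarcomeric ankyrin repeat protein induced by YAP, ranged from 0% to 93.7% covered over the 20 libraries. SMARCA1 covered 25.2% and 38.3% of its window in siGl3 NT and 27.5% and 19.1% in siGl3 H2O2. In siOrc6 cells the values were 61.4% and 27.4% in NT and 9.63% and 16.8% in H2O2. OGG1 gave 0% and 30.1% in siGl3 NT, 74.2% and 84.0% in siGl3 H2O2, 10.6% and 60.9% in siOrc6 NT, and 93.7% and 63.9% in siOrc6 H2O2. For OGG1 every H2O2 library was above every NT library, though by little between 63.9% and 60.9%, and the NT replicates were far apart. Orc6 gave 30.6% and 68.1% in NT and 82.0% and 85.2% in H2O2. The peak of its strongest region lay within 1 kb of the start in 8 of the 19 lists with a region, and more than 5 kb away in 10.

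AMOTL2, an angiomotin family scaffold that binds YAP and is itself a target, had the largest siOrc6 difference of the 10. SMARCA1 covered 0% and 12.8% in siGl3 NT, 5.85% and 11.0% in siGl3 H2O2, 49.3% and 40.5% in siOrc6 NT, and 29.4% and 38.3% in siOrc6 H2O2. Every siOrc6 library was above every siGl3 library, by 31.9 points on average. A separation in this direction was found at 26.9% of genes. With OGG1 the siRNA groups overlapped: NT libraries ran from 52.7% to 62.4% and H2O2 libraries from 85.1% to 93.5%. Orc6 gave 34.9% and 30.9% in NT and 31.4% and 55.0% in H2O2.

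AXL codes for a receptor tyrosine kinase that binds GAS6 and marks mesenchymal states. SMARCA1 covered 9.11% and 18.1% in siGl3 NT, 15.8% and 14.9% in siGl3 H2O2, 28.4% and 27.1% in siOrc6 NT, and 24.1% and 24.7% in siOrc6 H2O2. As at AMOTL2 and at 26.9% of genes, no siOrc6 library fell to the siGl3 level in covered share. By rank among genes the order was reversed. In NT, siOrc6 stood at percentiles 84.5 and 91.2 and siGl3 at 95.5 and 97.2. In H2O2, siOrc6 stood at 75.6 and 87.1 and siGl3 at 90.2 and 90.4. OGG1 ran from 23.8% to 70.7% in NT and from 78.2% to 98.0% in H2O2, without overlap, and Orc6 gave 31.5% and 26.4% in NT and 47.9% and 48.8% in H2O2. The windows of AXL also reach 2 neighbours, CYP2S1 and HNRNPUL1, and its strongest region peaked 26.3 to 37.1 kb from its starts in 4 lists.

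LATS2, the kinase that phosphorylates YAP1 and is induced by it as feedback, was the member with the least signal. It had no SMARCA1 region in siGl3 NT or siGl3 H2O2, in either replicate. In siOrc6 cells all 4 SMARCA1 libraries had a region over the LATS2 start, covering 4.51% and 2.68% of the window in NT and 2.13% and 7.03% in H2O2. The 2 siRNA groups therefore did not overlap, and the region lay over the promoter printed above. The strongest region was low in its list in NT, at percentiles 1.73 and 26.2 by total signal, and higher in H2O2, at 84.4 and 80.0. These lists held 14791 and 11012 regions in NT and 35381 and 65093 in H2O2. Percentiles from lists of such different length do not measure a change of signal.

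The pattern of LATS2, occupied in 4 of 4 siOrc6 and 0 of 4 siGl3 libraries, was shared by 194 genes, 0.971% of the 19974, and no other member was among them. The reverse held at 0.115% of genes and at no member. For H2O2 against NT, no member went from no library to all. None could, because each already had a region in NT libraries of every antibody (LATS2 in 2 of 4 for SMARCA1). The background was 6.13% of genes for SMARCA1, 7.4% for OGG1 and 1.13% for Orc6. Losses were 0.225% for Orc6 and 0% for the others. For LATS2 under siOrc6, Fisher's exact test, two-sided, gave p = 0.0286, the smallest that 4 against 4 libraries allow. That test pooled the NT and H2O2 libraries of each siRNA. An exact permutation test that keeps the treatments apart cannot go below p = 0.0556 within 1 antibody. The adjusted p of LATS2 by Fisher's exact test was 0.255 (Benjamini-Hochberg over 1934 genes occupied in exactly 4 of the 8 libraries). The difference at LATS2 thus did not pass the threshold of 0.05. Counting starts alone, 856 of 15812 genes, 5.41%, were covered in 4 of 4 against 0 of 4, and LATS2 was the only member of the 8 with a known start. Among the strongest 6992 regions of each list, 1 siOrc6 library and no siGl3 library kept the LATS2 region. OGG1 covered LATS2 in all 8 libraries, with 3.63% and 3.87% in siGl3 NT, 52.4% and 48.3% in siGl3 H2O2, 3.56% and 8.31% in siOrc6 NT, and 35.4% and 33.3% in siOrc6 H2O2. Orc6 covered 3.62% and 7.91% in NT and 6.26% and 4.47% in H2O2, which overlapped.

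AJUBA codes for a LIM protein that restrains LATS kinases. SMARCA1 covered 7.01% and 11.9% in siGl3 NT, 5.85% and 12.1% in siGl3 H2O2, 36.1% and 26.8% in siOrc6 NT, and 16.3% and 21.3% in siOrc6 H2O2. Its siRNA groups did not overlap in covered share, with siOrc6 higher, as at 26.9% of genes. By rank among genes in NT, siOrc6 stood lower, at percentiles 88.8 and 91.1 against 93.2 and 93.6 in siGl3, and in H2O2 the ranks overlapped. The first start of AJUBA was covered in 4 siOrc6 but 1 siGl3 library. OGG1 ran from 27.9% to 34.9% in NT and from 82.2% to 98.7% in H2O2, without overlap. Orc6 stayed between 17.6% and 27.1% in both treatments. The window of AJUBA also reaches HAUS4 and C14orf93.

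**Figure D3:**
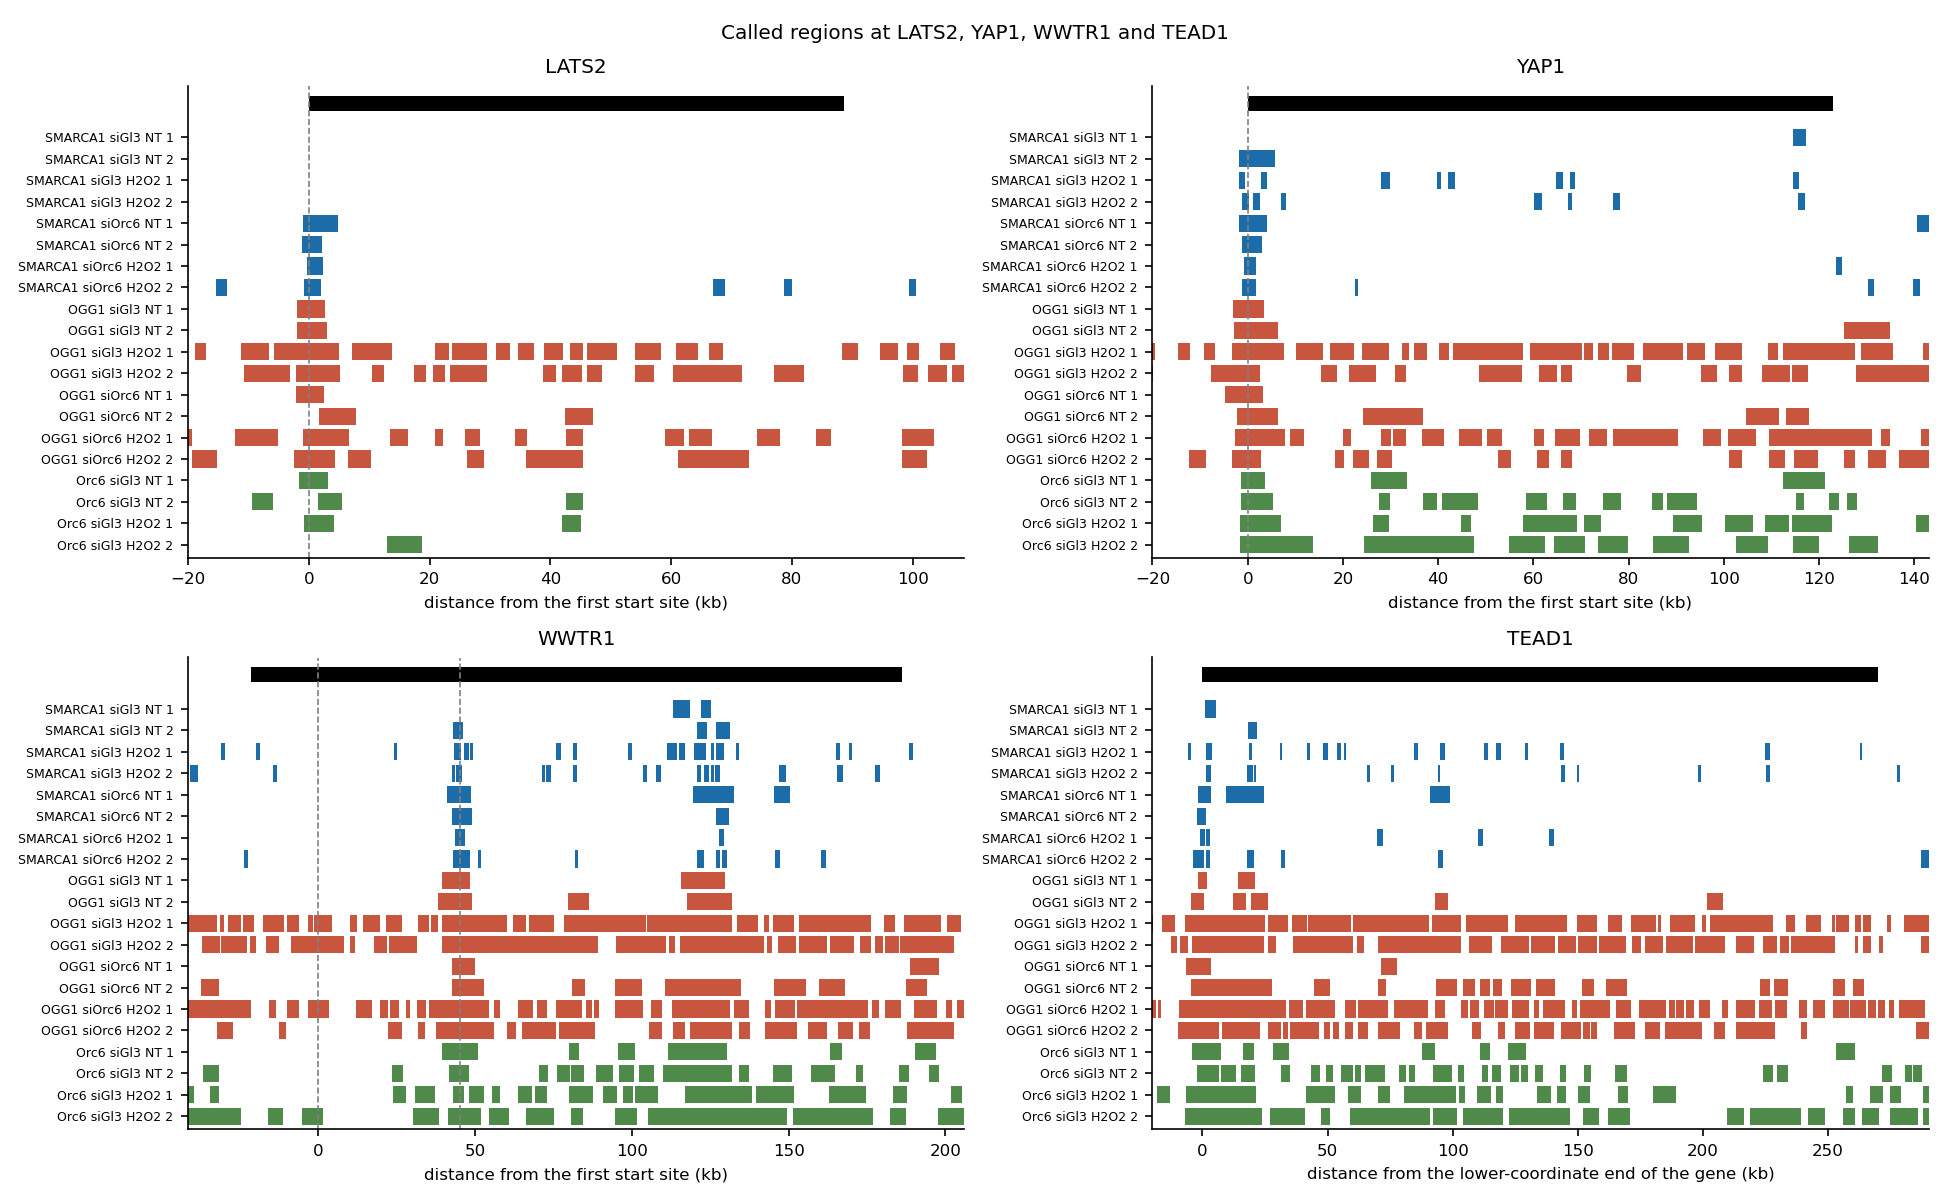
Called regions (SMARCA1 blue, OGG1 red, Orc6 green) in each of the 20 libraries (rows) at LATS2, YAP1, WWTR1 and TEAD1, by distance in kb from the first start in the direction of the gene (for TEAD1 from its lower-coordinate end). The black bar is the gene and dashed lines are RefSeq starts. LATS2 has no region in the 4 SMARCA1 siGl3 rows and 1 over its start in each of the 4 SMARCA1 siOrc6 rows.

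YAP1, the coactivator itself, had a region over its start in 18 of the 20 libraries. SMARCA1 covered 1.68% and 4.55% in siGl3 NT, 6.47% and 5.96% in siGl3 H2O2, 5.11% and 2.56% in siOrc6 NT, and 2.18% and 3.89% in siOrc6 H2O2. OGG1 covered 4.00% and 11.6% in siGl3 NT, 71.4% and 43.4% in siGl3 H2O2, 4.81% and 20.1% in siOrc6 NT, and 56.7% and 29.9% in siOrc6 H2O2. All OGG1 H2O2 libraries were above all NT libraries. Orc6 covered 13.1% and 27.6% in NT and 35.1% and 52.0% in H2O2, also without overlap. In 6 libraries the strongest region peaked inside the gene or beyond it, 28.6 to 145.8 kb from the start.

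WWTR1, which codes for TAZ, had its strongest region away from its starts in most libraries. The peak lay 71.8 to 82.7 kb from the nearest start in 11 of 20 lists, inside the gene, and within 1 kb of a start in the other 9. All 4 Orc6 lists shared the distal stretch chr3:149572938-149586247. SMARCA1 covered 3.58% and 4.38% in siGl3 NT, 12.3% and 9.79% in siGl3 H2O2, 10.3% and 4.23% in siOrc6 NT, and 1.92% and 6.86% in siOrc6 H2O2. OGG1 ranged from 6.57% to 31.6% in NT and from 49.6% to 80.0% in H2O2, and Orc6 gave 20.1% and 35.5% in NT and 44.9% and 63.3% in H2O2. Neither pair of ranges overlapped.

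TEAD1, the DNA-binding partner, has the longest window of the 10. SMARCA1 covered 1.45% and 1.05% in siGl3 NT, 7.60% and 4.87% in siGl3 H2O2, 9.12% and 1.17% in siOrc6 NT, and 3.27% and 4.95% in siOrc6 H2O2. In siGl3 cells SMARCA1 had 1 region in each NT library and 16 and 11 in the H2O2 libraries. OGG1 ranged from 3.28% to 35.4% in NT and from 56.0% to 78.7% in H2O2, with 25 to 36 regions after H2O2. Orc6 gave 14.8% and 33.8% in NT and 41.4% and 65.8% in H2O2, without overlap. The highest NT value of OGG1 was again siOrc6 replicate 2.

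SMARCA1 regions were narrower after H2O2 at nearly every member. In siGl3 cells, 8 of the 8 members with a region in all 4 libraries had a lower mean width in both H2O2 libraries than in both NT libraries, against 94.3% of 3379 genes. In siOrc6 cells it was 9 of 10, all but CCN2, against 90.7% of genes. No member had wider SMARCA1 regions in both H2O2 libraries, against 0.0296% of genes in siGl3 and 0.182% in siOrc6 cells. The lists as a whole had median widths of 3790 and 3231 bp in siGl3 NT and 1270 and 1469 bp in siGl3 H2O2. The number of regions was higher in both siGl3 H2O2 libraries at 7 of the 8, all but AJUBA, against 87% of genes, and in siOrc6 cells at 4 of 10 (AMOTL2, AXL, AJUBA and TEAD1), against 69.8%. The OGG1 lists showed no such pattern in siGl3 cells: 4 of 9 members had narrower and 4 wider regions, against 14.6% and 36.3% of genes. In siOrc6 cells 4 of 10 members (AMOTL2, YAP1, WWTR1 and TEAD1) had narrower OGG1 regions, against 9.21% of genes, and AJUBA alone had wider ones, against 16.2%. OGG1 regions were more numerous in both H2O2 libraries at 7 of 9 members in siGl3 cells (65.2% of genes) and at 6 of 10 in siOrc6 cells (59.8%).

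The question of what H2O2 did to the members was put to the covered share of all 18593 genes with any region. The label was permuted exactly within the 5 pairs of groups, two-sided, over 7776 arrangements, and p-values were adjusted over all genes by Benjamini-Hochberg. With H2O2, 74.4% of genes passed at an adjusted p under 0.05 with a higher covered share and 0% with a lower one. Of the 10 members 6 passed, so the members' share was not above the background. With lists of equal covered bases, and again on ranks among genes, 8 of the 10 differences turned negative and no member passed. In covered share, where its sign held on every scale, TEAD1 rose by 29.8 points (from a mean of 11.4% to 41.2%, higher in 9 of 10 pairs, exact permutation, adjusted p = 0.00785). By the same exact permutation test, WWTR1 rose by 28.0 points (9 of 10 pairs, adjusted p = 0.00801) and YAP1 by 21.2 (9 of 10 pairs, adjusted p = 0.00785), signs that turned negative with equal covered bases and on ranks. The effectors thus had the 3 smallest p-values of the set in covered share. They also have its 3 longest windows, of 310.3 kb (TEAD1), 247.6 kb (WWTR1) and 163.0 kb (YAP1), so role and window length cannot be told apart.

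Among the targets and feedback genes, AXL rose by 24.6 points (7 of 10 pairs, adjusted p = 0.0150), LATS2 by 15.1 (6 of 10 pairs, adjusted p = 0.0347) and AMOTL2 by 13.6 (6 of 10 pairs, adjusted p = 0.0412), all by the exact permutation test. AXL and AMOTL2 turned negative with equal covered bases, and LATS2 and AMOTL2 on ranks. AMOTL2 no longer passed in 15 of the 20 fits that left out 1 library, and LATS2 in 2, without SMARCA1 siOrc6 H2O2 replicate 2 or Orc6 NT replicate 1 (adjusted p up to 0.0605 by the exact permutation test). AXL did not pass without OGG1 siOrc6 H2O2 replicate 2 (adjusted p = 0.0530, exact permutation test). With the replicate number as a block, AMOTL2 and LATS2 did not pass (both adjusted p = 0.0789, exact test). CCN1, CCN2, ANKRD1 and AJUBA did not pass, with mean differences of 15.7, 18.6, 20.3 and 21.8 points and adjusted p of 0.0661, 0.0690, 0.128 and 0.0582 by the exact permutation test. CCN2 passed in 3 of the fits that left out 1 library (OGG1 siOrc6 H2O2 replicate 2, SMARCA1 siOrc6 NT replicate 1 or Orc6 NT replicate 2) and AJUBA in 2 (SMARCA1 siOrc6 NT or H2O2 replicate 1). The median difference of the 10 members was 20.8 points and that of all genes 15.9, but with windows of 5 kb in place of 20 kb it was 15.0 for the members and 15.6 for all genes.

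The direction of these differences depended on the scale and on OGG1. When every list was cut to the same number of covered bases, no gene passed (225 were higher and 253 lower at an unadjusted exact permutation p under 0.05) and 8 of the 10 members, all but LATS2 and TEAD1, had a lower mean after H2O2. When the covered share was replaced by its rank among genes of the same library, no member passed and again 8 of 10 were lower, all but AXL and TEAD1. Without the OGG1 libraries no gene passed (4875 were higher and 19 lower at an unadjusted p under 0.05, and the exact permutation test cannot go below 0.00926), and the members' median difference was 2.56 points, against 4.81 over all genes. In that fit CCN1, ANKRD1 and AJUBA were lower after H2O2.

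**Figure D4:**
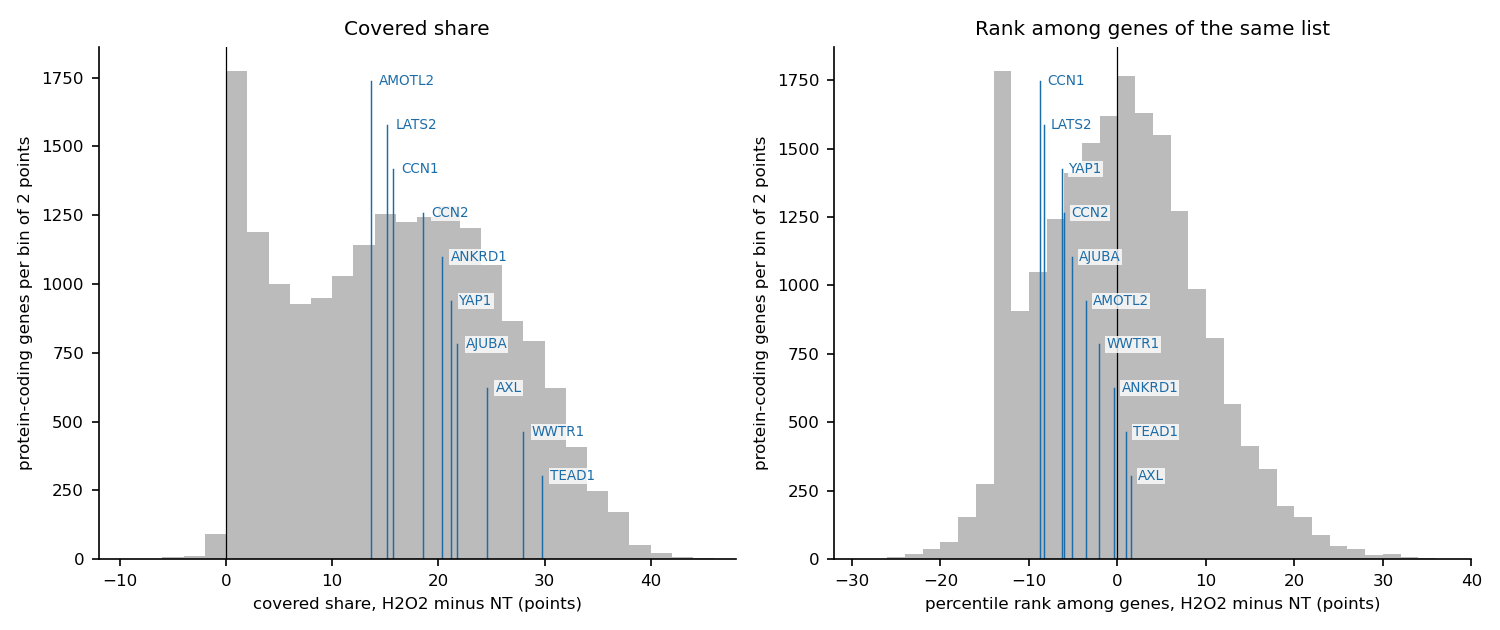
Mean difference between H2O2 and NT libraries over the 5 pairs of groups for all protein-coding genes (grey, genes per bin of 2 points) with the 10 members marked (blue lines). Left, covered share in percentage points, where all 10 members lie above 0; right, percentile rank of the covered share within each library, where 8 of the 10 lie below 0.

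The H2O2 difference was larger for OGG1 than for SMARCA1 at every member in covered share, but with equal covered bases it was smaller at CCN2, AMOTL2, LATS2, WWTR1 and TEAD1, and on ranks at CCN1, CCN2 and AMOTL2. The OGG1 pairs differed by a median over members of 46.7 points, against 30.7 over all genes, and all 10 members exceeded the median gene. The SMARCA1 pairs differed by a median of -0.16 points, against 2.45 over all genes, and 1 of the 10 members exceeded the median gene. At 9 of 10 members, all but CCN2, every OGG1 H2O2 library was above every NT library, against 62% of genes, and no member showed this for SMARCA1, against 9.25% of genes. For Orc6 it held at 5 of 10, ANKRD1, AXL, YAP1, WWTR1 and TEAD1, against 46.5% of genes. No member was lower in every H2O2 library, against 0.231% of genes for SMARCA1, 0% for OGG1 and 1.33% for Orc6.

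The difference between the antibodies was tested by permuting the label over the 4 OGG1 and 4 SMARCA1 pairs, exactly and two-sided. Pairs of siGl3 and siOrc6 cells were exchanged freely, without the siRNA strata kept in the test of H2O2. The difference was largest at ANKRD1, 73.4 points (53.6 points higher for OGG1, and for SMARCA1 a mean of 38.1% in NT and 18.2% in H2O2), and smallest at CCN2, 36.1 points. At 9 members p was 0.0286, the smallest that the 70 arrangements allow, with an adjusted p of 0.0605 by the exact permutation test. At CCN2 p was 0.143. No gene of the 18593 passed, 0% in either direction, while 8783 had an unadjusted p under 0.05. In 7 of the 8 fits that left out 1 pair, no member passed either. Leaving out the OGG1 pair of siOrc6 replicate 2, the pair in which CCN2 was lower, brought all 10 members to an adjusted p of 0.0446 by the exact permutation test, with 11810 genes past the threshold.

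**Figure D5:**
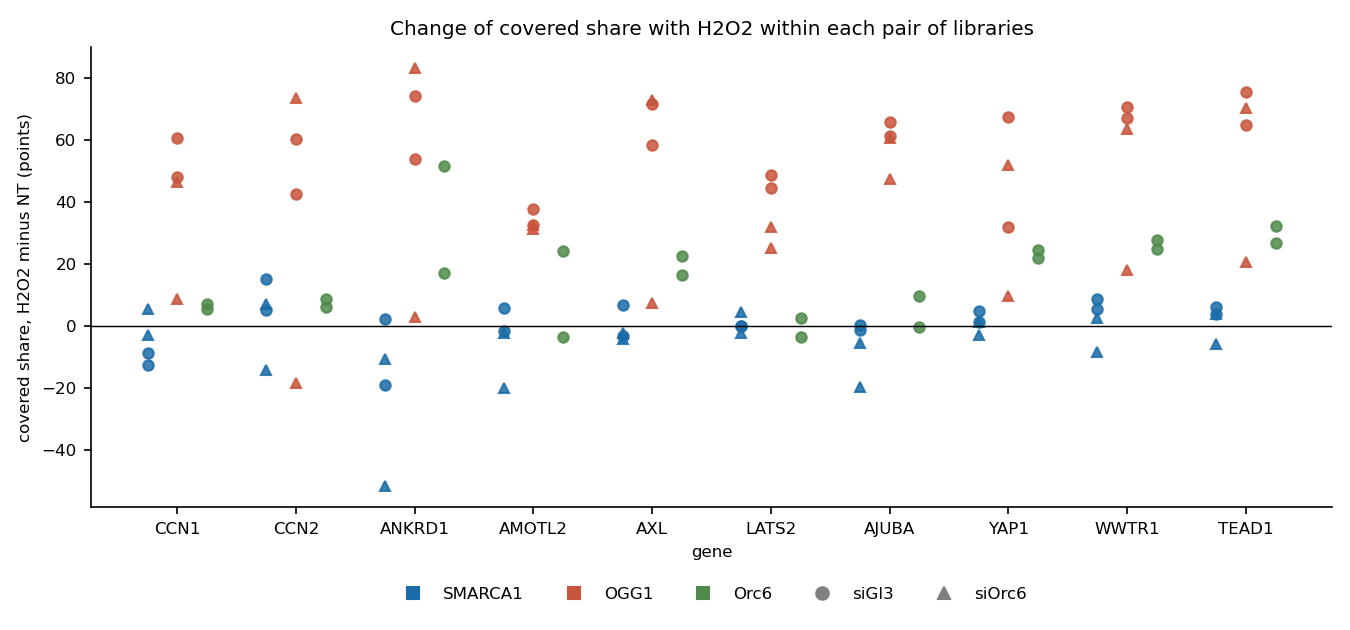
Difference in covered share (percentage points, H2O2 minus NT) within each pair of libraries of the same antibody, siRNA and replicate number, for each of the 10 genes. Colours are antibodies and symbols siRNAs (circles siGl3, triangles siOrc6); OGG1 pairs are above 0 except 1 at CCN2, while with equal covered bases or on ranks 8 of the 10 mean differences over all antibodies are below 0.

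The siRNA against Orc6 moved no member past the threshold, and how far it lowered Orc6 was not analysed here. Within 4 pairs of groups and 1296 exact arrangements, siOrc6 libraries were compared with siGl3 libraries. Of 18593 genes, 0% passed with a higher and 0% with a lower covered share in siOrc6 libraries. At an unadjusted exact permutation p under 0.05, 747 genes were higher and 43 lower. AMOTL2 had the largest difference of the members, 16.5 points (39.8% to 56.4%, higher in 6 of 8 pairs, exact permutation p = 0.0216, adjusted p = 0.976). AXL followed with 7.67 points (5 of 8 pairs, exact permutation p = 0.259) and AJUBA with 7.41 (7 of 8 pairs, exact permutation p = 0.0849), and both were negative on ranks. The other 7 lay between -3.84 points at WWTR1 and 5.75 at ANKRD1.

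In SMARCA1 alone, AMOTL2, AXL, LATS2 and AJUBA were covered more in every siOrc6 than in every siGl3 library, 4 of 10 members against 26.9% of genes. In OGG1 no member did so, against 0% of genes. Members lower in every siOrc6 library numbered 0 for SMARCA1 and 0 for OGG1, against 0.769% and 0.0807% of genes. Within 1 antibody the exact permutation test cannot go below p = 0.0556, so these differences had no test of their own.

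Ranks within a library place the members among all genes. In the SMARCA1 siGl3 NT libraries the covered share of CCN1 stood at percentiles 99.7 and 98.7 of all genes, that of ANKRD1 at 99.6 and 99.8, that of CCN2 at 97.2 and 93.7 and that of AXL at 95.5 and 97.2. These 4 targets were above the 90th percentile in both libraries, as was AJUBA at 93.2 and 93.6. AMOTL2 had no region in replicate 1 and stood at 94.4 in replicate 2, and LATS2 had no region in either. YAP1 at 82.9 and 77.5, WWTR1 at 86.7 and 76.7, and TEAD1 at 82.4 and 63.4 were below the 90th percentile. The windows of these effectors span 163.0, 247.6 and 310.3 kb. Those of CCN1, CCN2, ANKRD1, AJUBA and AXL span 43.2, 43.2, 49.0, 51.4 and 82.5 kb. In replicate 1, a region of 4491 bp covered 1.45% at TEAD1 and one of 5163 bp covered 12.0% at CCN2. Role and window length cannot be told apart in these ranks. Only 19.2% and 38.2% of gene windows held a region in these 2 libraries. The other genes were tied at 0, so any gene with a region ranked above them, as did TEAD1 at a covered share of 1.45% and 1.05%. In the OGG1 siGl3 NT libraries CCN1 stood at 67.9 and 64.1, CCN2 at 56.0 and 52.3, and ANKRD1 at 18.6 and 68.6. AMOTL2 stood at 88.8 and 82.2 there. Lists of different lengths give different ranks, so these are descriptions of each library.

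By total signal, the strongest region of AMOTL2 had a median percentile of 97.6 in its list over the 19 lists that held one, AXL 97.5, WWTR1 96.0, CCN1 95.7 and ANKRD1 95.4. AMOTL2 and AXL were at or above the 90th percentile in 18 lists each, and CCN1 in 17. Each value is that of the highest region in a window, which favours windows with many regions. The median number of regions per list was 8.5 at WWTR1 and 1.5 at CCN1. No value of all genes is set beside these percentiles, so they do not show that the members were unusual. The strongest region of AMOTL2 peaked 9.69 to 48.5 kb from its starts in 12 of the 19 lists, and in 5 it lay outside the gene altogether. For ANKRD1 it lay outside the gene in 4 of 19 lists and peaked 49.3 kb from the start in Orc6 H2O2 replicate 2. The ANKRD1 window also reaches RPP30. LATS2 was lowest, with a median of 49.7 over 16 lists and none at the 90th percentile. By maximum signal the order changed, with WWTR1 first at 94.5 and AJUBA, at 75.0, below every member but LATS2 at 55.5. The percentile of CCN1 by maximum signal fell as low as 35.9, in SMARCA1 siGl3 H2O2 replicate 2, where its total signal was at 97.4.

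The authors' deposited tables of SMARCA1 windows under siOrc6, named up and ns, give positions alone, and the sources used here do not say what was compared. In the authors' deposited NT table named up, 9 members had a window, all but ANKRD1, against 45.2% of genes. ANKRD1 and WWTR1 had windows in the authors' deposited NT table named ns, against 17.7% of genes. After H2O2 the authors' deposited table named up again held 9 members, all but ANKRD1, against 61.1% of genes, and the table named ns held 9, all but LATS2, against 61.9%. In the authors' deposited NT table named up, the LATS2 window lay 0.212 kb from its start.

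Of 43 other genes of the pathway, 42 had a region, and all 42 had a higher mean covered share after H2O2. The rise passed the threshold at 31, with 0 passing as lower, against 74.4% of all genes passing as higher. The list was drawn up with results of these data known. Those with the largest differences were MOB1A (35.0 points, adjusted p = 0.00469), an adaptor of the LATS kinases, STK4 (31.9, adjusted p = 0.00667), the kinase MST1, and MAP4K4 (31.8, adjusted p = 0.00912), a kinase upstream of LATS. They were followed by MOB1B (29.5, adjusted p = 0.00640) and by the targets FJX1 (29.3, adjusted p = 0.0188) and GADD45A (28.3, adjusted p = 0.0164), all by the exact permutation test. By role, 14 of 17 kinase core and adaptor genes, 4 of 5 effector partners and 13 of 20 targets passed. On the rank scale 1 passed as higher and 4 as lower. With the replicate block 20 passed as higher, and without the OGG1 libraries none passed. With siOrc6, 0 of 42 passed.

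The genes whose covered share followed that of CCN1 most closely over the 20 libraries, on other chromosomes, were ARHGAP26, C2CD3 and FRMD5, each with Pearson r near 0.976 (0.976, 0.976 and 0.975), where the median gene had 0.793. For CCN2 they were CTNNA3, ABCA13 and CCDC18 (r of 0.976, 0.976 and 0.974, median gene 0.592). All genes were read from the same 20 libraries, and r is given as a description; what makes it high was not tested.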

How the data were processed

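Each of the 20 lists holds regions called in 1 CUT&RUN library, on the build hg38 per the submitters' processing notes, which also name SEACR 1.1, Bowtie2, SAMtools, bedtools, deepTools, DiffBind and DESeq2 without roles. The deposited signal of each region, its total and its maximum, is the authors' own, made with a normalization and control that the sources used here do not state. Signal therefore served only to rank or trim regions inside each list. Chromosomes 1 to 22 and X were kept, and 0.339% of regions lay elsewhere. The 14 samples without a list, IgG among them, were not analysed here, so values have no background from control libraries. One list of the whole series was not used here.

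Gene positions came from RefSeq (GRCh38.p14), and starts and strands from RefSeq promoters, which matched 8 of 10 members. Exons, introns and UTRs were not used here. The covered share is the percentage of bases of a gene with 20 kb on each side that lie in regions. Groups were compared by exact permutation within strata (without strata for OGG1 against SMARCA1), and occupancy by Fisher's exact test without strata. Benjamini-Hochberg adjustment was over all genes tested, with a threshold of 0.05. The test scripts were tested on simulated data. The comparison of OGG1 with SMARCA1 and the fit without OGG1 were added after the data were seen.

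The members and lists were chosen with earlier results of these data known. All 10 members are named. Of the pathway list, at most 6 passing genes per direction are named, and for CCN1 and CCN2 the 3 genes most alike. Promoters are printed for the 5 genes whose starts were covered in the most libraries (where 2 starts tied, the one with a motif) and, chosen after their values were seen, for ANKRD1 and LATS2. All 20 libraries carry a batch label equal to their replicate number, and pairs were formed from that label. The values did not show the pairing throughout: deviations of same-numbered libraries from their group means correlated between -0.68 and 0.68 (median -0.0687 over 45 pairs of groups, over 0.1 in 18). Alternatives covered the window, the overlap, list length, covered bases, signal, rank, the block and each library left out. Tools were matplotlib 3.10.9, pandas 2.3.3, scipy 1.17.1, numpy 2.4.6 and Python 3.11.15.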

Additional observations from a re-analysis of the deposited data

How the results depend on the processing

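The members' H2O2 differences turned negative with equal covered bases at CCN1 (-10.1), CCN2 (-4.03), ANKRD1 (-7.81), AMOTL2 (-12.5), AXL (-5.81), AJUBA (-2.41), YAP1 (-0.532) and WWTR1 (-1.83), on ranks at CCN1 (-8.73), CCN2 (-6.03), ANKRD1 (-0.340), AMOTL2 (-3.53), LATS2 (-8.32), AJUBA (-5.11), YAP1 (-6.27) and WWTR1 (-2.07), and without OGG1 at CCN1 (-1.09), ANKRD1 (-1.81) and AJUBA (-2.83). The count of 13828 genes that passed as higher became 0 with lists of equal length, 0 with equal covered bases and 0 without OGG1. In these fits no member passed. On ranks 577 genes passed as higher and 2939 as lower. The cause was not tested. With the replicate number as a block 10176 genes and 4 of 10 members passed for H2O2, and 0 for siOrc6. The siOrc6 differences turned with lists of equal length at LATS2 (0.266), AJUBA (-0.307), YAP1 (1.43) and TEAD1 (-2.65), with equal covered bases at CCN2 (-5.28), ANKRD1 (-3.42) and LATS2 (0.266), with the stronger regions of each list (those above its median total signal) at TEAD1 (-0.579), on ranks at CCN1 (-4.10), CCN2 (-3.26), AXL (-3.98), LATS2 (10.3), AJUBA (-0.149) and TEAD1 (-6.45), and without OGG1 at CCN2 (-0.622) and LATS2 (4.09). Leaving out 1 library gave ranges of -2.16 to 2.72 at CCN1, -5.64 to 10.9 at CCN2, -0.543 to 12.0 at ANKRD1, -6.46 to 0.524 at YAP1 and -2.53 to 5.03 at TEAD1. The difference between OGG1 and SMARCA1 turned with lists of equal length at LATS2 (-0.532), with equal covered bases at CCN2 (-4.62), AMOTL2 (-3.34), LATS2 (-0.532), WWTR1 (-0.710) and TEAD1 (-3.24), and on ranks at CCN1 (-1.87), CCN2 (-0.378) and AMOTL2 (-3.94). Leaving out 1 pair of libraries gave 0 to 11810 genes that passed as higher and 0 to 99 that passed as lower. Counts of genes occupied in all libraries of 1 group and none of the other (gained, or lost when the reverse) moved as follows. SMARCA1 with H2O2 gained 1225 and lost 0 genes, with 32 and 38 at equal length, 378 and 4 at equal covered bases, 1883 and 1 among the stronger regions, 512 and 13 within 1 kb of starts, 1 lost with the 5 kb window and 1263 to 1880 gained without 1 library. OGG1 with H2O2 gained 1479 and lost 0, with 88 and 7 at equal length, 2 and 10 at equal covered bases, 2504 gained among the stronger regions, 12 lost by region midpoint and 1524 to 2700 gained without 1 library. With the replicate block the 1225 and the 1479 genes had an exact p of 0.125, the smallest it allows. SMARCA1 with siOrc6 gained 194 and lost 23, with 343 and 14 for the 5 kb window, 123 gained for 50 kb, 1023 and 103 at equal length, 81 and 361 at equal covered bases, 771 and 6 within 1 kb of starts, and 194 to 583 gained and 23 to 52 lost without 1 library. OGG1 with siOrc6 gained and lost 0, with 4 and 6 at equal length, 1 and 2 at equal covered bases, 1 lost among the stronger regions, 1 and 1 by midpoint, and 0 to 1 gained and 0 to 2 lost without 1 library. Orc6 with H2O2 gained 226 and lost 45, with 113 gained for 50 kb, 513 and 160 at equal length, 28 and 370 at equal covered bases, 355 and 79 among the stronger regions, 473 gained within 1 kb of starts, and 284 to 2529 gained and 68 to 629 lost without 1 library. Read depth is unknown, so how far it limits these lists was not tested.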
